A study of Papio anubis and Macaca mulatta with 6 samples.

Results

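The cells described here are testis barcodes that carried KRT19, a keratin of simple epithelia, together with more Sertoli than stromal RNA. A barcode was a member when it held at least 1000 unique molecular identifiers (UMIs, which count RNA molecules) and at least 2 KRT19 UMIs, and when the summed UMIs of 10 Sertoli genes exceeded those of 7 stromal genes. The Sertoli genes were AMH, INHA, INHBB, FATE1, AARD, PRND, SERPINA5, APOA1, SOX9 and DHH, and the stromal genes were DCN, PDGFRA, TCF21, C7, NR2F2, COL1A1 and COL3A1. Of 44341 barcodes with at least 1000 UMIs, 26204 passed the Sertoli gate and 597 were members, which was 1.35% of all these barcodes. The members are called KRT19-high below, and the barcodes of the same gate without a KRT19 UMI are called KRT19-none.

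The study sequenced unselected testis cells of 2 immature olive baboons and 2 immature rhesus macaques, taken at necropsy after euthanasia for another purpose. The methods of the study name no treatment of these animals. Cells were dissociated with collagenase and trypsin, with a wash between the steps that removes interstitial cells. Libraries 1A and 1B both came from baboon 1, libraries 2A and 2B both came from rhesus monkey 2, and each remaining animal gave 1 library. Baboon 2 was run with 10x Genomics chemistry version 3 and all other libraries with version 2, so that animal and chemistry cannot be told apart in the baboon. The deposited design text gives ages of 15 and 20 months for the baboons and of newborn and 26 months for the rhesus monkeys, whereas the methods of the study give these pairs to the other species. The sources used here tie no age to a single animal, and age was not used.

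Sertoli cells are the epithelial support cells of the seminiferous tubules, and before puberty they secrete anti-Müllerian hormone (AMH). Keratins are the intermediate filament proteins of epithelia, where type I keratins such as KRT19 and KRT18 pair with type II keratins such as KRT8. Simple keratins are known from immature Sertoli cells and from the epithelium of the rete testis. In the baboon genome (Panubis1.0), KRT19 is a protein-coding gene on chromosome 17, from 48707113 to 48712074.

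Nearly all members were baboon barcodes. Libraries 1A, 1B and baboon 2 gave 90, 70 and 423 members, or 583 in all, and baboon 2 alone gave 72.6% of these. Rhesus 1, 2A and 2B gave 5, 3 and 6 members. The members were 1.09% of the gated barcodes of library 1A (exact Clopper-Pearson 95% interval 0.880% to 1.34%), 1.55% of those of 1B (1.21% to 1.96%) and 9.68% of those of baboon 2 (8.82% to 10.6%). In the rhesus monkey they were 0.0976% (0.0317% to 0.228%), 0.148% (0.0306% to 0.433%) and 0.308% (0.113% to 0.669%) of the gated barcodes of libraries 1, 2A and 2B. The mean over animals was 5.47% ± 5.96 (SD, n = 2) in the baboon and 0.162% ± 0.0912 (SD, n = 2) in the rhesus monkey. The baboons differed by more than the counting error over barcodes, with 1 animal on each side and unequal depth and chemistry, so that this is no test between animals. Both baboons were above both rhesus monkeys. The two-sided exact permutation test over animals gave p = 0.333, the smallest value that 2 animals against 2 allow. It could therefore not decide between the species and is not read as a result. The files of both species list KRT19, but each species was counted against its own annotation, with 34178 genes listed for the baboon and 21356 for the rhesus monkey, and the part of the annotation in the species difference was not tested. These intervals, and all others below, cover counting error only.

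Depth moved with membership, because a rule of 2 UMIs selects deep barcodes. The median member had 3497, 3774 and 16355 UMIs in libraries 1A, 1B and baboon 2, against 1973, 2063 and 4024 UMIs in KRT19-none barcodes. All levels below were therefore taken after 1000 UMIs had been drawn at random from every barcode, and they are given as UMIs per 10000. At that depth, 2.95% (2.60% to 3.34%), 2.88% (2.41% to 3.41%) and 5.10% (4.47% to 5.80%) of the gated baboon barcodes had a KRT19 UMI. At least 2 UMIs remained in 0.194%, 0.310% and 0.435%, so that the gap between the baboons shrank with equal depth.

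KRT19 was also found in barcodes of the stroma gate and in near-empty droplets, whose levels served as a background; the source of that KRT19 was not tested. In the stroma gate 2.37% (1.43% to 3.67%), 1.92% (0.881% to 3.61%) and 1.87% (1.42% to 2.41%) of barcodes had a KRT19 UMI at 1000 UMIs in libraries 1A, 1B and baboon 2. Their median depth before drawing was 1396, 1464 and 1839 UMIs. The intervals of the 2 gates overlapped in both libraries of baboon 1 and did not overlap in baboon 2. Near-empty droplets of 10 to 100 UMIs held 0.319, 0.331 and 0.446 KRT19 UMIs per 10000, and all UMIs of the gated barcodes together held 0.344, 0.387 and 0.522. These shares describe single libraries, since the rule used KRT19 and barcodes are not replicates. In both libraries of baboon 1 together they were 2.93% in the Sertoli gate and 2.20% (1.47% to 3.17%) in the stroma gate, the latter from 28 barcodes. In the rhesus libraries, 0.0976%, 0.148% and 0.411% of gated barcodes and 0.376%, 0.356% and 0.315% of stroma-gated barcodes had a KRT19 UMI. Near-empty droplets of rhesus 1, 2A and 2B held 0.0217, 0.0827 and 0.0747 KRT19 UMIs per 10000. All UMIs of their gated barcodes held 0.0280, 0.0159 and 0.0545, which was below the droplets in 2A and 2B.

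**Figure D1:**
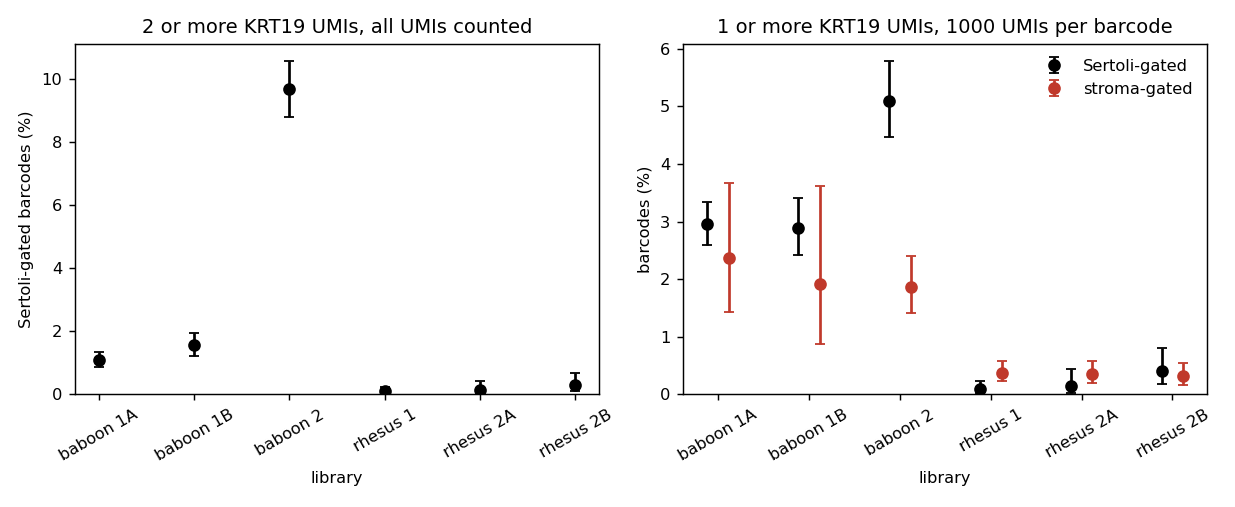
Share of barcodes with KRT19 in each library. The left panel plots the percent of Sertoli-gated barcodes with at least 2 KRT19 UMIs as counted, and the right panel the percent with at least 1 KRT19 UMI at 1000 UMIs, for Sertoli-gated (black) and stroma-gated (red) barcodes. Points are libraries and bars are exact 95% intervals; at equal depth the intervals of the gates do not overlap in baboon 2, at 5.10% against 1.87%, and overlap in 1A and 1B.

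The number of KRT19 UMIs was low in most members. Of the baboon members, 334 had exactly 2 KRT19 UMIs, 184 had 3 or 4 and 65 had at least 5, with a highest count of 15. Just outside the rule, 1392 gated baboon barcodes and 22 gated rhesus barcodes had 1 KRT19 UMI. Only 2 baboon members had fewer than 1200 UMIs, and 3 baboon barcodes with at least 800 but fewer than 1000 UMIs met the rest of the rule. The Sertoli sum was above the stromal sum by 1 UMI in 8 baboon members, and both sums were equal in 2 baboon barcodes with at least 2 KRT19 UMIs. Across gated barcodes at 1000 UMIs, the variance of the KRT19 count divided by its mean was 1.11, 1.24 and 1.16 in libraries 1A, 1B and baboon 2, and 0.999, 0.999 and 1.22 in rhesus 1, 2A and 2B.

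The Sertoli name was checked against the markers of the gate, as a description, since the rule used them. In the baboon, AMH was at 48.7, 57.6 and 73.1 UMIs per 10000 in members of 1A, 1B and baboon 2, against 63.9, 65.8 and 76.4 in KRT19-none barcodes and 4.39, 4.48 and 4.78 in the stroma gate. SOX9, a transcription factor of Sertoli fate, was at 2.67, 3.14 and 2.34 in members against 3.24, 3.36 and 2.26. Sertoli genes that the rule did not use were also present at similar levels. WT1, a transcription factor of the gonadal supporting cells, was at 2.00, 1.29 and 1.25 UMIs per 10000 in members and at 1.75, 1.79 and 1.27 in KRT19-none barcodes. Of 15 tested Sertoli genes outside the rule (among them WT1, GATA4, DMRT1, FSHR, BEX1 and BEX2), 0 passed the test of KRT19-high against KRT19-none. Only 0.286% of all 10476 genes tested passed in either direction, so that 0 of 15 does not set these genes apart. Their median log2 fold change was 0.07, against -0.03 over all genes.

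Not every baboon member fitted the Sertoli name. The 10 Sertoli genes made up 0.669%, 0.799% and 0.937% of the UMIs of the median member in 1A, 1B and baboon 2, and 0.793%, 0.803% and 0.918% in KRT19-none barcodes. They were below 0.5% in 71 of 583 baboon members (26, 21 and 24 by library) and in 3360 of 15137 KRT19-none barcodes. Of these 71 members, 20 had at least 3 UMIs of a list of germ cell genes (DDX4, DAZL, UTF1 and others), and 5 others had PTGDS, a prostaglandin D synthase, at 1% or more of their UMIs. The remaining 46 had neither. Those classes were set after the values had been seen and carry no test. Before the draw, 134 of 583 members and 263 of 15137 KRT19-none barcodes had at least 3 germ-list UMIs, at unequal depth; the part of germ RNA in the results was not tested.

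In the rhesus monkey the Sertoli genes of the gate went against the name. Only 2 of 14 members had the Sertoli genes at 0.5% of their UMIs or more, 1 in library 1 with 28 AMH UMIs and 1 in library 2A with 15. The other 12 had 0 to 3 AMH UMIs each. In rhesus 1, the other 4 members had 20, 8, 7 and 25 UMIs of ID4, a transcriptional inhibitor known from undifferentiated spermatogonia, and 3 of them had at least 3 UMIs of the germ list. Of all 5 members of rhesus 1, 3 (60%) had at least 3 UMIs of a list of endothelial genes before the draw, at unequal depth. The share was 0.784% in KRT19-none barcodes of rhesus 1. After the draw, germ genes summed to 0 UMIs per 10000 in the 5 members, against 0.167 in KRT19-none barcodes. Endothelial genes summed to 2.00 against 0.296, in members all from EGFL7. In library 2B, the 6 members had 0 or 1 AMH UMI, and 3, 4, 6, 1, 9 and 5 Sertoli UMIs sufficed for the gate because stromal UMIs were 0 or 1. Of these 6, 5 had between 7 and 34 UMIs of TAGLN, an actin-binding protein of contractile cells. The same 5 had between 11 and 114 of CLU, a secreted chaperone on the list of Sertoli genes outside the rule. After the draw, the list summed to 110 and 152 UMIs per 10000 in 2A and 2B members, against 75.2 and 78.8 in KRT19-none barcodes. CLU alone was at 73.3 and 140 in these members, against 31.3 and 33.6. Of the 19 genes found, 14 and 16 had no UMI in them. In rhesus 1 the list went the other way, at 8 against 55.6. The rhesus members are therefore described only as KRT19-high barcodes of the gate, and no cell type is given to them.

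**Figure D2:**
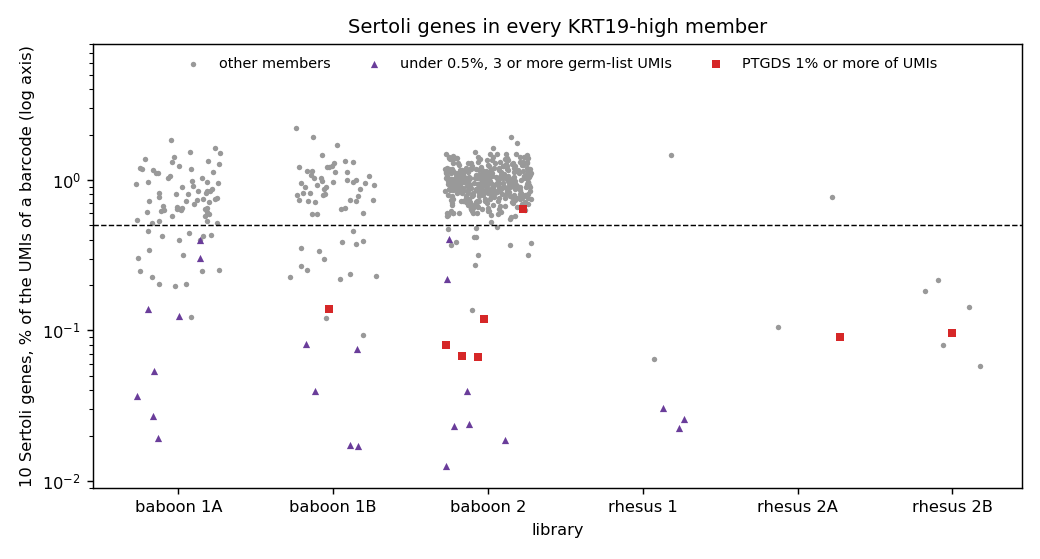
Sertoli content of each of the 597 members. The vertical axis is the percent of a barcode's UMIs from the 10 Sertoli genes (log axis), with 1 point per barcode by library and a dashed line at 0.5%. Triangles are members under that line with at least 3 germ-list UMIs and squares are members with PTGDS at 1% or more of their UMIs; most baboon members lie above the line and 12 of 14 rhesus members lie below it.

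The genes given with the definition of these cells were TNFRSF12A, MATN2, IER3, HRK, CD9 and CREB5. They were chosen for this pattern, so their levels are given as a description without a test. TNFRSF12A, the receptor of the cytokine TWEAK, was at 1.11, 1.43 and 0.520 UMIs per 10000 in members of 1A, 1B and baboon 2, and at 0.326, 0.356 and 0.165 in KRT19-none barcodes. MATN2, an adaptor protein of the extracellular matrix, was at 1.33, 2.14 and 0.378 against 0.466, 0.507 and 0.186. CD9, a tetraspanin of the cell membrane, was at 1.22, 2.29 and 1.49 against 0.558, 0.625 and 0.783. These 3 genes were higher in members in each baboon library. Their log2 fold changes were 1.73 ± 0.30, 1.45 ± 0.29 and 1.12 ± 0.21 (± SE of the edgeR fit below, n = 2 baboons). This SE, here and below, is set by the trend across genes and does not measure the spread between the baboons. Within baboon 1 and baboon 2 the log2 ratios were 1.75 and 1.41 for TNFRSF12A, 1.71 and 0.86 for MATN2 and 1.46 and 0.89 for CD9. MATN2 was also found in the stroma gate, at 0.536, 0.832 and 0.448 UMIs per 10000, whereas TNFRSF12A was at 0.0125, 0.0853 and 0.00966 there.

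The remaining 3 markers were rare. CREB5, a leucine zipper transcription factor, was at 0.333, 0.429 and 0.260 UMIs per 10000 in members and at 0.161, 0.118 and 0.129 in KRT19-none barcodes. HRK, a pro-apoptotic BH3-only protein, was at 0.222, 0.143 and 0.638 against 0.158, 0.154 and 0.354, so that library 1B did not show the direction of the other two. IER3, an immediate-early gene of the stress response, had no UMI at that depth in the 90 members of 1A, which allows a share of barcodes with a UMI of up to 3.33% and says nothing of how many cells express the gene. It was at 0.429 and 0.331 in 1B and baboon 2, against 0.0985 and 0.219 in KRT19-none barcodes. Few members carried several of the markers at 1000 UMIs. At least 2 of the 6 markers had a UMI in 5 of 90, 9 of 70 and 15 of 423 members, or 5.56% (1.83% to 12.5%), 12.9% (6.05% to 23.0%) and 3.55% (2.00% to 5.78%), against 1.70%, 1.83% and 1.47% of KRT19-none barcodes.

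Genes outside the rule were then tested between KRT19-high and KRT19-none barcodes. UMIs were summed per animal and class, and the baboon was tested over 10476 genes with the quasi-likelihood test of edgeR, with the animal as a block and Benjamini-Hochberg adjustment. The test called 15 genes higher in members, which was 0.143% of the genes tested, and 15 genes lower, also 0.143%. Of the 15 higher genes, 10 had a symbol. They include TNFRSF12A, MATN2 and CD9, the markers chosen for this pattern, whose calls are not read as results and none of which DESeq2 called. The others were TIMP1, S100A10, PTGDS, KRT8, CELF2, CRYAB and S100A6. With 2 animals the residual spread has 1 degree of freedom and is set by the trend across genes. At an unadjusted p under 0.05 stood 485 genes, or 4.63%. Without the animal term edgeR called 0 genes, and DESeq2 with the animal term called 4 higher and 1 lower.

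TIMP1 and S100A10 rose in KRT19-high barcodes. TIMP1, an inhibitor of matrix metalloproteinases, was at 8.22, 7.57 and 7.61 UMIs per 10000 in members of 1A, 1B and baboon 2, and at 2.78, 2.62 and 4.71 in KRT19-none barcodes. The levels of the 2 classes did not overlap between libraries, and the log2 fold change was 1.02 ± 0.15 (edgeR adjusted p = 1.55e-08). TIMP1 was higher still in the stroma gate, at 12.1, 11.9 and 9.34. With barcodes of at least 5 Sertoli UMIs and no more than 1 stromal UMI, the log2 fold change was 1.04 ± 0.13. S100A10, the partner of annexin A2 at the cell membrane, was at 6.56, 9.71 and 9.93 UMIs per 10000 in members against 3.13, 3.38 and 6.51, a log2 fold change of 0.86 ± 0.15 (edgeR adjusted p = 4.88e-06). The stroma gate was at 3.15, 3.50 and 3.82 for S100A10, close to or below KRT19-none barcodes. Within baboon 1 and baboon 2 the log2 ratios were 1.53 and 0.69 for TIMP1, and 1.29 and 0.61 for S100A10.

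The calls depended on single libraries of baboon 1. Without library 1A, the edgeR adjusted p was 0.0879 for TIMP1 and 0.195 for S100A10, and without 1B it was 0.259 for S100A10, with log2 fold changes of 0.93, 0.88 and 0.71. Without 1B TIMP1 still passed (edgeR adjusted p = 0.00223). Without thinning neither passed, at log2 fold changes of 0.73 ± 0.27 and 0.58 ± 0.28 (edgeR adjusted p = 0.413 and 1.00). With at least 3 KRT19 UMIs neither passed (edgeR adjusted p = 0.260 for each), at 0.98 ± 0.27 and 1.01 ± 0.28. The value was slightly smaller than under the rule for TIMP1 and larger for S100A10, and both had larger errors. DESeq2 called both genes (adjusted p = 0.000954 and 0.0023). Both also passed in a set of members and KRT19-none barcodes matched by depth. There the log2 fold changes were 1.01 ± 0.13 and 0.95 ± 0.12 (edgeR adjusted p = 4.48e-12 for each). The shares of barcodes showed the same direction. A TIMP1 UMI at 1000 UMIs was found in 43.3% (32.9% to 54.2%), 52.9% (40.6% to 64.9%) and 50.8% (46.0% to 55.7%) of members, and in 20.7%, 20.1% and 33.4% of KRT19-none barcodes. For S100A10 the shares were 41.1%, 57.1% and 54.8% of members and 23.7%, 25.0% and 43.4% of KRT19-none barcodes.

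Among keratins and other filaments, KRT8 passed the test. KRT8, the type II partner of simple keratins, was at 3.11, 3.14 and 2.84 UMIs per 10000 in members against 1.86, 1.91 and 1.77 in KRT19-none barcodes, a log2 fold change of 0.67 ± 0.17 (edgeR adjusted p = 0.0327). The classes did not overlap between libraries, and the stroma gate was at 0.212, 0.128 and 0.145. The call was close to the threshold, and with another random draw of UMIs the log2 fold change was 0.44 with an adjusted p of 0.999. It was lost in 12 of 15 alternatives with a test, among them sums per library with the library as a block (0.63, edgeR adjusted p = 0.0635), no thinning (0.17, adjusted p = 1.00), DESeq2 (0.68), and the fits without 1A (0.61), without 1B (0.63) or without the barcodes marked as doublets (0.62). The log2 fold change was thus close to 0.67 in these 4 and in the sums per library, and lower with the redraw and without thinning. In the depth-matched set KRT8 passed, at 0.77 ± 0.18 (edgeR adjusted p = 0.00781). KRT18, a type I simple keratin, was at 2.44, 2.71 and 2.01 against 1.56, 1.49 and 1.60, and its log2 fold change of 0.46 ± 0.18 did not pass (edgeR adjusted p = 0.742). KRT7, a keratin of ducts, had 1 UMI in all baboon members. Of 8 tested genes of the list for simple epithelium, rete testis and ducts, 1 passed (KRT8) and 7 had a positive fold change, with a median log2 fold change of 0.50. Over all 10476 genes tested, 0.143% were called higher, 46.7% had a positive fold change and the median was -0.03. Of 6 tested intermediate filament genes, again only KRT8 passed, and VIM, the filament of Sertoli and mesenchymal cells, had a log2 fold change of 0.21. EPCAM, an adhesion molecule of epithelia, was at 0.222, 0.286 and 0.615 in members against 0.135, 0.137 and 0.438, and did not pass (edgeR adjusted p = 1.00).

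CELF2 and CRYAB were called at lower levels. CELF2, an RNA-binding regulator of splicing, was at 1.00, 1.00 and 0.804 UMIs per 10000 in members against 0.522, 0.548 and 0.366 (log2 fold change 1.01 ± 0.26, edgeR adjusted p = 0.0368). CRYAB, a small heat shock protein, was at 1.00, 0.286 and 0.473 against 0.166, 0.187 and 0.216 (1.41 ± 0.34, edgeR adjusted p = 0.0168). Both were higher in all 3 libraries, but with another random draw neither passed (adjusted p = 0.314 for each), at log2 fold changes of 0.89 ± 0.28 and 1.19 ± 0.37. Of 15 alternatives with a test, the CELF2 call was lost in 12 and the CRYAB call in 10. CELF2 was lost with sums per library (edgeR adjusted p = 0.0635) and without thinning (0.48, adjusted p = 0.868), and CRYAB without the barcodes marked as doublets (1.40, adjusted p = 0.0568).

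PTGDS and S100A6 depended on the gate. PTGDS was at 4.33, 13.1 and 8.91 UMIs per 10000 in members and at 2.79, 2.62 and 3.43 in KRT19-none barcodes, a log2 fold change of 1.43 ± 0.15 (edgeR adjusted p = 1.45e-18). At 1000 UMIs per barcode, 260 of the 508 PTGDS UMIs in baboon members (51.2%) came from 6 barcodes with PTGDS at 1% or more of their UMIs, and before the draw 34.2% did. Of these 6 barcodes, 5 had Sertoli genes below 0.5%. Before the draw these 6 held 6, 0, 1, 4, 16 and 30 UMIs of LCN2, a secreted lipocalin, and 3, 8, 4, 1, 17 and 31 of S100A6. In the rhesus monkey the 2 members with PTGDS at 1% or more held 3 and 8 UMIs of LCN2, 9 and 3 of S100A6 and 41 and 3 of ITLN1, an intelectin. The part of the cells these barcodes come from in the PTGDS and S100A6 differences was not tested beyond the gates below. When only barcodes with Sertoli genes at 0.5% of UMIs or more were compared, a gate added after the data had been seen, 512 members remained and the log2 fold change of PTGDS was 0.36 ± 0.15 (edgeR adjusted p = 0.923). Under the planned strict gate, of at least 5 Sertoli UMIs and no more than 1 stromal UMI, the PTGDS value was 0.52 ± 0.15 (edgeR adjusted p = 0.183). Without thinning it was 0.61 (adjusted p = 0.783). S100A6, a calcium-binding protein, was at 0.222, 2.00 and 0.355 against 0.140, 0.154 and 0.252 (1.39 ± 0.34, edgeR adjusted p = 0.0190), with 14 of its 31 UMIs from library 1B. Within baboon 1 and baboon 2 its log2 ratio was 2.43 and 0.42. Without 1B its log2 fold change was 0.50 with an adjusted p of 0.999. Under the added gate it turned to -0.25 ± 0.63, whereas under the strict gate it was 2.28 ± 0.54 (edgeR adjusted p = 0.0214). Before the draw, 1 member of 1B with 3801 UMIs held 37 S100A6 UMIs, and no other member of 1B held more than 8. That barcode had 9 Sertoli UMIs (0.237% of its UMIs) and 0 stromal UMIs. It passed the strict gate and failed the added one. The part of this barcode in the S100A6 difference was not tested.

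The added gate called 7 genes higher (0.0693% of 10101 tested), and all 7 were among the 15 called under the given rule. Those with a symbol were TIMP1 and S100A10, with log2 fold changes of 1.01 and 0.90, and the markers MATN2, TNFRSF12A and CD9, which are given as a description at 1.52, 1.61 and 0.98. The strict gate called 12 genes higher (0.122% of 9812 tested), among them the same 5, KRT8, CELF2 and S100A6, and 10 of the 12 were called under the given rule.

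**Figure D3:**
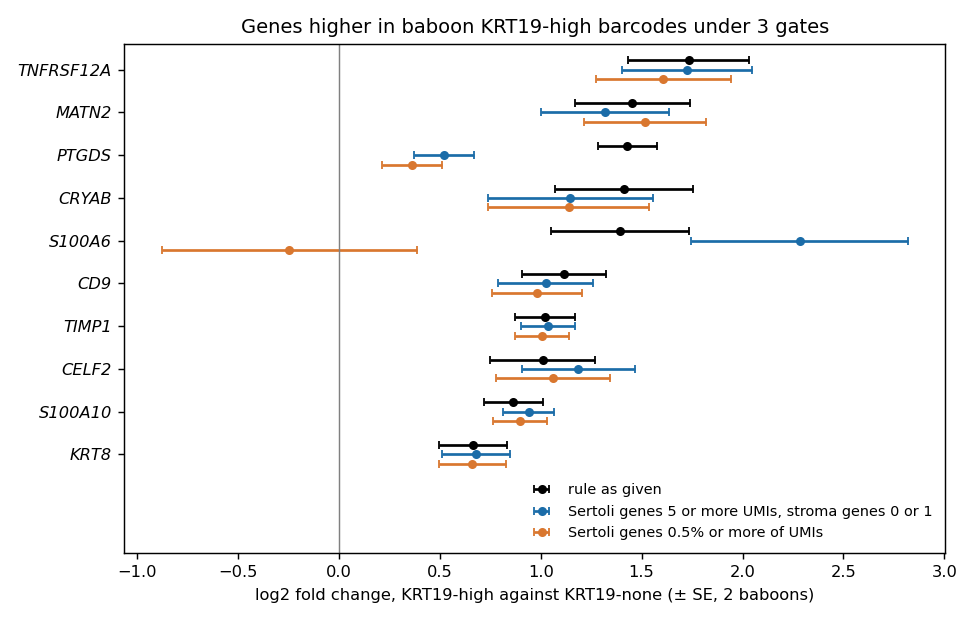
Genes higher in baboon KRT19-high barcodes under 3 gates. The horizontal axis is the log2 fold change against KRT19-none barcodes with the SE of the edgeR fit (n = 2 baboons). This SE is set by the trend across genes and is not the spread between the baboons. Colours mark the rule as given (black), the strict gate (blue) and the gate of 0.5% Sertoli UMIs (orange). TNFRSF12A, MATN2, CD9, TIMP1 and S100A10 keep their values, while PTGDS falls from 1.43 to 0.36 under the gate of 0.5%, where S100A6 goes from 1.39 to -0.25. Under the strict gate PTGDS is at 0.52 and S100A6 at 2.28.

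Barcodes with 1 KRT19 UMI, which belong to neither class of the test, lay between the classes for several genes. TIMP1 was at 4.42, 4.53 and 7.04 UMIs per 10000 in these barcodes of 1A, 1B and baboon 2, above KRT19-none barcodes and below members in each library. S100A10 was at 4.74, 4.10 and 7.82, TNFRSF12A at 0.700, 0.576 and 0.261 and MATN2 at 0.90, 0.971 and 0.293, with the same order in each library. KRT8 was at 2.84, 2.52 and 2.05, also in between. CELF2, at 0.540, 0.396 and 0.326, was in between in 1A and below both classes in 1B and baboon 2. Among members of baboon 2, S100A10 was at 8.04, 10.4 and 15.9 UMIs per 10000 at 2, 3 to 4 and at least 5 KRT19 UMIs, and CD9 was at 0.913, 1.58 and 3.45. In the same classes TIMP1 was at 6.99, 8.36 and 8.10 and KRT8 at 2.51, 3.56 and 2.24, so that they did not go on rising. Barcodes with more KRT19 UMIs were also deeper before the draw, and the part of depth in this order was not tested.

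**Figure D4:**
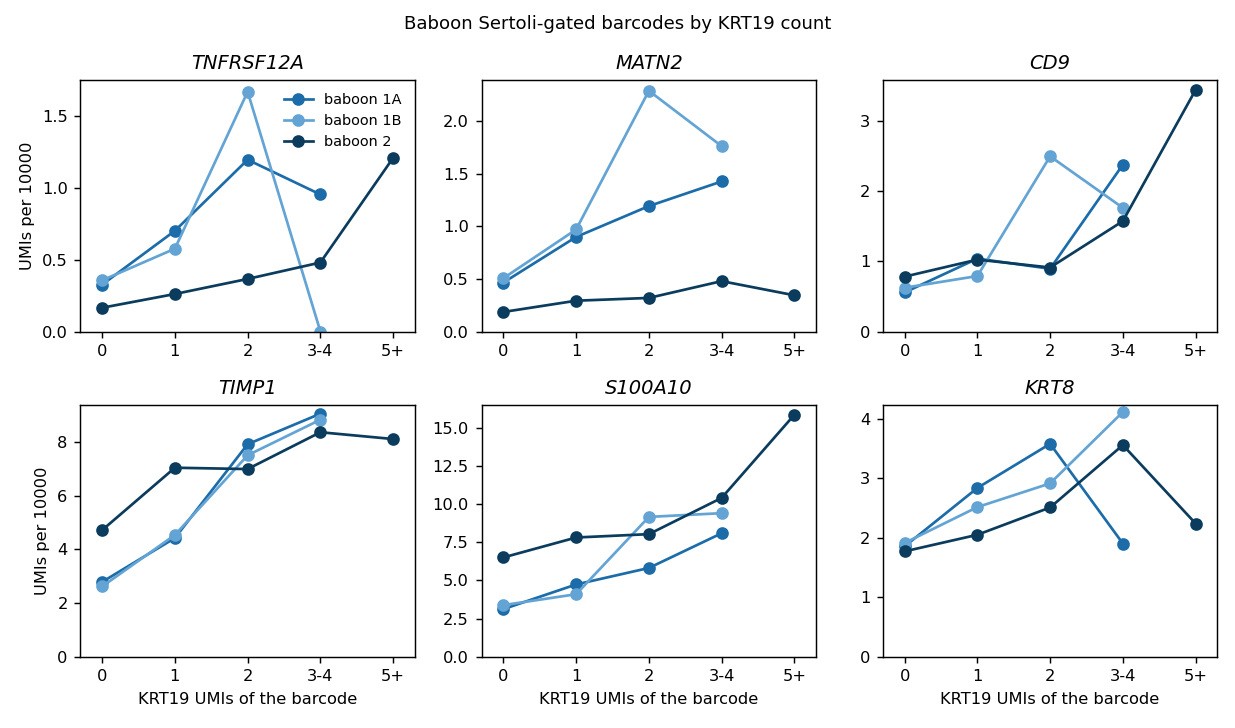
Levels of 6 genes in baboon Sertoli-gated barcodes by their KRT19 count. The horizontal axis is the class of KRT19 UMIs, the vertical axis is UMIs per 10000 at 1000 UMIs per barcode, and each line is a library, with classes of fewer than 10 barcodes left out. TIMP1, S100A10, TNFRSF12A, MATN2 and KRT8 are higher at 1 KRT19 UMI than at 0 in all 3 libraries.

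Among 20 tested immediate-early and stress genes, 0 passed, where 0.286% of all genes tested passed in either direction. Of the 20 genes, 18 had a positive fold change, against 46.7% of all genes tested, with a median log2 fold change of 0.13 against -0.03. The lowest p-value among them was that of NR4A1, an orphan nuclear receptor, at 0.444, 0.571 and 4.99 UMIs per 10000 in members against 0.267, 0.238 and 3.35 (log2 fold change 0.61 ± 0.18, edgeR adjusted p = 0.189). It was picked by its value and lies outside the rule for named genes. The summed level of that list differed far more between animals than between classes, at 61.9, 70.6 and 204.6 in members of 1A, 1B and baboon 2 and at 63.4, 59.6 and 181.8 in KRT19-none barcodes. Of 12 tested annexins, S100 proteins and galectins, 2 passed (S100A10 and S100A6), against 0.143% of all genes tested that were called higher. Both calls were lost without 1A and without 1B, and the S100A6 call also under the added gate. Of the 7 tested tetraspanins other than CD9, 0 passed, and CD63 and CD81 had log2 fold changes of 0.23 ± 0.15 and -0.03 ± 0.15.

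None of the remaining lists had a gene past the edgeR test, apart from those of other cell types below. This held for 13 genes of cell junctions, 9 of the BCL2 family, 11 targets of YAP and TEAD, 5 of the NF-kappaB response, 17 of the actin cytoskeleton, 11 of basement membrane and integrins, 7 of the mitotic cycle and 14 of glycolysis and lactate. Their median log2 fold changes lay between -0.14 and 0.17. Over all 10476 genes tested 0.286% passed in either direction, so counts of 0 in lists this short are not read as a result. CCN1, a matricellular target of YAP, was at 1.44, 1.86 and 4.54 UMIs per 10000 in members against 0.883, 0.822 and 3.30, and did not pass (log2 fold change 0.55 ± 0.17, edgeR adjusted p = 0.259). STMN1, the most abundant of the mitotic genes, had a log2 fold change of -0.06 ± 0.16. The number of genes per barcode was also close at 1000 UMIs, with medians of 612.5, 627 and 656 in members and 610, 610 and 654 in KRT19-none barcodes.

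Of the 15 genes called lower in members, 13 had a symbol and 12 had the same direction in all 3 libraries. CHD6, a chromatin remodeller, fell by 0.78 ± 0.20 on the log2 scale (edgeR adjusted p = 0.0356), passed under the strict gate (0.0456) and was not called under the gate of 0.5%. Nor was CHD6 called in the depth-matched set, at 3 or more KRT19 UMIs or without the animal term. It was at 1.22, 1.29 and 1.37 UMIs per 10000 in members of 1A, 1B and baboon 2, below the 2.37, 2.41 and 2.16 of KRT19-none barcodes. IGFBP7, a secreted binding protein, was at 0.444, 1.29 and 0.591 against 0.645, 0.528 and 2.17, so that it was lower in 1A and baboon 2 and higher in 1B, and over both libraries of baboon 1 its log2 ratio was 0.40 against -1.79 in baboon 2. The other 11 held at most 5 UMIs in members and entered the test only through KRT19-none barcodes, so their direction was fixed by the filter and their calls are not read. Among these, VWF, a clotting factor carrier, EGFL7, a secreted factor of vessels, and CLDN5, a tight junction protein, are endothelial genes, at 0, 2 and 1 UMIs in members and 219, 360 and 214 in KRT19-none barcodes. No other gene of the 9 on the endothelial list was tested. INSL3, the Leydig cell hormone, was at 0 and 310 UMIs. The rest were SOX18, SRGN, GNG11, RBP7, CAV1, APOD and YTHDC2. EGFL7 was at 0.111 UMIs per 10000 in members of 1A, above the 0.0838 of KRT19-none barcodes. RBP7, a retinol-binding protein, had 2 UMIs in all members and was at 0.213, 0.223 and 0.699 UMIs per 10000 in KRT19-none barcodes of 1A, 1B and baboon 2.

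Counted before the draw, barcodes rich in endothelial RNA were not rarer among members in baboon 1, whose members were also deeper. Before the draw, and so at unequal depth, at least 3 UMIs of the 9 endothelial genes were found in 2.22%, 2.86% and 1.18% of members of 1A, 1B and baboon 2, and in 0.707%, 0.745% and 3.24% of KRT19-none barcodes. Over the 3 libraries these were 9 of 583 members (1.54%) and 193 of 15137 KRT19-none barcodes (1.28%). At least 3 INSL3 UMIs were found in 0 members and 28 KRT19-none barcodes. The summed level of the endothelial list was 0.331, 0.334 and 1.91 UMIs per 10000 in KRT19-none barcodes and 0.111, 0.00 and 0.0709 in members. Macrophage genes summed to 0.913, 0.514 and 1.26 in KRT19-none barcodes and 0.222, 1.57 and 0.449 in members, with CD74 the most abundant in KRT19-none barcodes, and lymphoid genes to at most 0.363 in either class. Germ genes summed to 0.889, 1.14 and 0.946 in members against 0.682, 0.733 and 1.16, with DDX4 at 0 in members of 1A. None of the 3 germ, 2 macrophage, 1 lymphoid, 3 peritubular myoid or 1 glial genes tested passed. Over all genes tested 0.286% passed in either direction. Under the strict gate 3 genes were lower (0.0306% of 9812 tested) and under the gate of 0.5% Sertoli UMIs 2 were (0.0198%), where VWF, EGFL7, CLDN5 and INSL3 no longer held enough UMIs for the test.

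In the rhesus monkey the same test over 8134 genes called 0 genes (0.00%), with 199 genes (2.45%) at an unadjusted p under 0.05 in edgeR, and DESeq2 called 2 higher and 1 lower. The sums rested on 5 and 9 barcodes, and a gene without a UMI there was the rule. On simulated counts of this size most calls were false, so no direction is read from this test. TNFRSF12A had 5 UMIs at 1000 UMIs per barcode in the 6 members of 2B and none in those of libraries 1 and 2A. CD9 had 0, 2 and 3 UMIs in members of 1, 2A and 2B, and CREB5 had 1 UMI in all. MATN2 and IER3 had none. HRK, KRT8 and KRT18 were not found by symbol in the rhesus files and were not analysed here. PTGDS had 30 and 51 UMIs in members of 2A and 2B at 1000 UMIs per barcode. Before the draw 84 of 97 and 126 of 202 PTGDS UMIs came from 1 member of each library.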

How the data were processed

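The authors ran Cell Ranger 3.1.0 with Panubis1.0 for the baboon and Mmul_10 for the rhesus monkey. They deposited raw counts, the number of UMIs per gene and barcode, empty droplets included. Libraries held 16875294 to 49803025 UMIs. The members, markers and gene lists were chosen with earlier results of these data, and the cluster genes of the study, known. Libraries 1A and 1B shared 57 barcodes of at least 1000 UMIs and 2A and 2B shared 67. Doublets were kept. The automatic threshold of scrublet marked 0% in 1A and 1B, so the highest scores were marked at 0.8% per 1000 barcodes (scanpy 1.11.5) and left out as an alternative. This marked 13.3%, 4.29% and 10.2% of members and 6.75%, 3.44% and 7.77% of KRT19-none barcodes in 1A, 1B and baboon 2.

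UMIs were drawn with a fixed seed, summed per animal and class and tested in edgeR 4.0.16 (R 4.3.3, TMM, filterByExpr) with the animal as a block, since both classes of an animal come from the same animal. The rule genes stayed in library sizes but were not tested. DESeq2 1.42.0 was an alternative. The test was checked on simulated counts. Genes named beyond the lists had an adjusted p under 0.05, the same sign in all 3 libraries, at least 30 UMIs in the higher class and a symbol, up to 10 per direction; list examples were the most abundant past the test. Further single genes and the gate of 0.5% were chosen after values were seen. Symbols not found, such as CLU and SOX8 in the baboon, were not analysed here.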

Additional observations from a re-analysis of the deposited data

Results flagged for a closer look

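MATN2 and CELF2 had positive differences in all baboon libraries and negative ones in all rhesus libraries, but the rhesus sign was fixed because rhesus members held no UMI of either gene, and no difference between the species was tested or is read. The difference of members minus KRT19-none barcodes in UMIs per 10000 was 0.867, 1.64 and 0.192 for MATN2 in baboon 1A, 1B and baboon 2, and -0.365, -0.639 and -0.722 in rhesus 1, 2A and 2B. For CELF2 it was 0.478, 0.452 and 0.438 in the baboon libraries and -0.257, -0.253 and -0.361 in the rhesus libraries. The rhesus values come from 14 barcodes and are the KRT19-none levels with a minus sign.

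KRT19 was also found outside the gate. At least 2 KRT19 UMIs were held by 5 barcodes of 1A, 13 of baboon 2, 9 of 2A and 8 of 2B that failed the Sertoli gate. In the rhesus monkey this made 19 such barcodes outside the gate and 14 inside it, against 20 and 583 in the baboon.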

How the results depend on the processing

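The baboon calls (15 genes higher and 15 lower) depended on the setting. Without the replicate block of the animal 0 were higher and 0 lower, and DESeq2 gave 4 and 1. Without thinning 70 and 58 were called, at 2000 UMIs 37 and 29, at 3 or more KRT19 UMIs 3 and 3, and under the added 0.5% gate 7 and 2. The depth-matched set gave 15 higher, 11 of them called before, and 2 lower. The strict gate gave 3 lower, and no filter on low counts gave 9 higher. Leaving out library 1A or 1B gave 6 higher each, and 8 and 10 lower. With another draw of UMIs 14 were higher and 14 lower, with 10 and 10 of the genes called before. Without the barcodes marked as doublets 11 were higher and 14 lower, and KRT8 and CRYAB were not among them. In the rhesus monkey (0 and 0), 4 were higher without the replicate block, 2 higher and 8 lower with libraries as the replicate block, 1 and 18 without thinning, 2 and 1 with DESeq2, 2 higher at 2000 UMIs, 3 lower when depth-matched and 58 lower under the added gate, and 0 without 2A or 2B; simulated counts of this size gave mostly false calls. S100A6 turned to -0.25 under the added gate. The rhesus share was 0.352% at 2000 UMIs, 0.0637% under the strict gate and 0.0272% under the added one. Leaving out 1 library gave 0.123% to 0.227%, and 1.26% to 5.62% in the baboon, the lowest without baboon 2. TNFRSF12A, MATN2 and CD9 were higher in members under all 16 alternatives, from 1.15 to 2.22, 0.98 to 1.74 and 0.78 to 1.46 on the log2 scale. They were chosen for this pattern, so their direction is a description and no support. None of them passed without the block or with DESeq2, and at 3 or more KRT19 UMIs only CD9 did. Without baboon 2 or rhesus 1, 1 animal was left and no test was made. With 14 rhesus members, most genes could not be measured at this depth.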
